A study of Paeonia lactiflora with 8 samples.

Results

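Floral organs of flowering plants are specified by MADS-box transcription factors that act in combinations. In Arabidopsis, AGAMOUS sets stamen and carpel identity, its relatives of the SHATTERPROOF and SEEDSTICK type act in the carpel wall, the fruit and the ovule, and SEPALLATA proteins join the others in multimeric complexes needed in every whorl. The 4 genes of herbaceous peony (Paeonia lactiflora) described here carry names from these groups. Their grouping rests on the deposited names alone. FBP2 (comp5191_c0) and SEP1 (comp21161_c0) carry names of SEPALLATA-type genes from petunia and Arabidopsis. AGL1 (comp12596_c0) carries the Arabidopsis name of SHATTERPROOF1, and AG1 (comp18001_c0) a name of AGAMOUS-type genes. The 4 genes were selected by their identifiers in the table of gene expression. They are 4 of 30177 assembled genes, or 4 of 25 MADS-box genes found by symbol or description. All 4 passed the filter on low counts.

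Poly(A) RNA was sequenced from root, leaf and flower taken at the blossom period and from fruit taken at the young fruit period. Each organ had 2 biological replicates. Organ and period therefore cannot be told apart for fruit. The plants carry no allele, treatment or agent in the labels, their age is not given, and the labels do not say which floral parts the flower samples held or whether the fruits held seeds. In such bulk samples, fewer cells of a type and less RNA per cell cannot be told apart. The p-values measure the spread between these 8 libraries.

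Estimated counts summed to between 30399492 and 49421130 per library. The share of counts on IDs named TAR1-A, after a yeast transcript read from the strand opposite ribosomal RNA, was 41.4% in flower replicate 2 and between 1.77% and 18.9% in the other libraries. The organ labels were compared with markers by symbol. The summed level of 20 photosynthesis genes was 106689 TPM (a level scaled to effective transcript length and to a fixed total per library) or more in both leaf libraries, 12103 and 3279 TPM in fruit replicates 1 and 2, and at most 1398 TPM in root and flower. The 4 petal and stamen identity MADS genes summed to 1307 and 1353 TPM in flower and to at most 10 TPM elsewhere. The 5 SF3 genes, named for pollen-associated LIM proteins, did not set flower apart in their sum, with 184 and 216 TPM in flower, 161 and 231 TPM in leaf, 173 and 109 TPM in fruit and 142 and 116 TPM in root, although comp12409_c0 and comp14862_c0 among them had counts in flower alone. The 2 oleosin genes of seed oil bodies reached 6096 TPM in fruit replicate 2 and 8.74 TPM in fruit replicate 1. The 13 genes listed as root markers, mostly phosphate and nitrate transporters, did not set root apart in their sum. It was 49.2 and 223 TPM in root and 241 and 175 TPM in leaf. The root marker AGL12 (comp3886_c0) alone was at 16.6 and 32.3 TPM in root and at most 3.49 TPM elsewhere.

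Each of the 4 genes is a single assembled transcript described as a plant MADS-box transcription factor. The assembled lengths are 1108 bases for FBP2, 795 for SEP1, 1204 for AGL1 and 1432 for AG1. The deposited annotation gives all of them nuclear location, protein binding and sequence-specific DNA binding, adds ovule development for SEP1 and AGL1, and adds cell differentiation for SEP1. A second ID, comp5568_c0, also carries the name SEP1, and how the counting shared reads between such relatives is not known, which leaves the levels of the SEP1 IDs uncertain.

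FBP2, the SEPALLATA-type gene with the most reads, was found at 148 TPM in flower replicate 1 and 148 in flower replicate 2. Fruit held 51.0 TPM in replicate 1 and 35.3 in replicate 2. Root libraries stood at 0.12 and 0.49 TPM, and leaf libraries at 0 and 0.25, from 28 counts in root and 12 in leaf. Every flower library thus lay above every fruit library, and both reproductive organs lay far above root and leaf, which overlapped. By level FBP2 ranked 941 and 921 from the top in the flower libraries, and 3006 and 3033 in fruit.

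SEP1 (comp21161_c0), also of the SEPALLATA type by name, held 21.2 and 11.5 TPM in fruit replicates 1 and 2. Flower replicate 1 was at 8.73 TPM and flower replicate 2 at 2.82, from 306 and 48 counts. Leaf replicate 1 had 3 counts, and leaf replicate 2 and both root libraries had none. On TPM the fruit libraries lay above the flower libraries, whereas on CPM, which scales counts to the library size after TMM normalisation and leaves length aside, they overlapped, with 11.9 and 9.06 CPM in fruit and 10.1 and 2.72 CPM in flower. The flower replicates of SEP1 lay further apart than those of FBP2.

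AGL1, the gene named for fruit and ovule functions in Arabidopsis, was present at 32.4 and 32.9 TPM in fruit. Flower libraries held 0.34 and 0.28 TPM, from 20 and 8 counts, and leaf libraries 0.23 and 0.15 TPM, from 14 and 8 counts. No count fell on it in root. Fruit stood apart from all other organs. Flower, leaf and root followed in that order without overlap, with 28, 22 and 0 counts in all.

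AG1, of the AGAMOUS type by name, was present in fruit at 27.4 and 23.3 TPM. Leaf came next at 7.23 and 4.98 TPM, from 550 and 324 counts, and root held 0.18 and 0.23 TPM, from 12 and 14 counts. Neither flower library had a single count. AG1 was the only gene of the 4 without counts in flower, and the only one above 1 TPM in leaf.

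**Figure D1:**
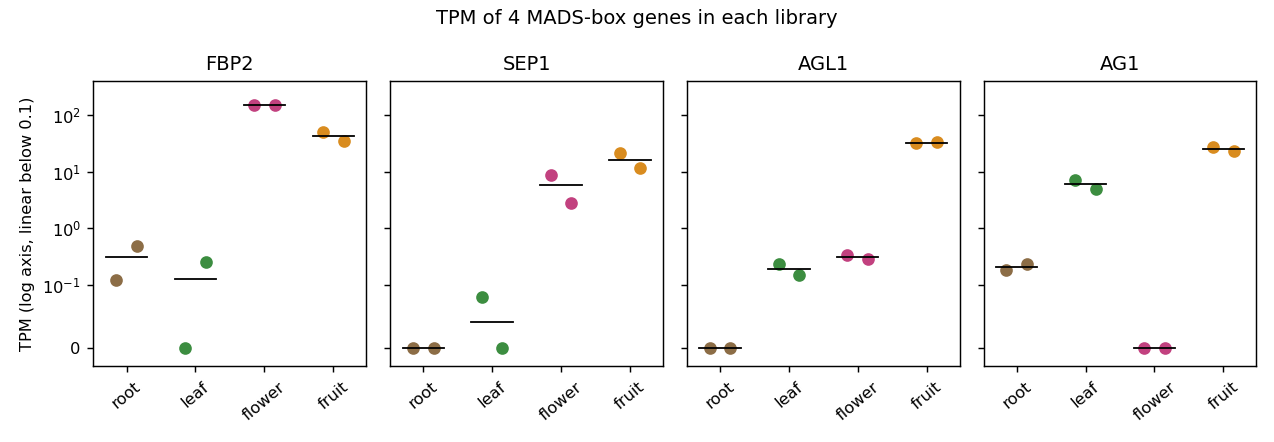
Levels of FBP2, SEP1 (comp21161_c0), AGL1 and AG1 in TPM (log axis, linear below 0.1) by organ; points are the 2 libraries of an organ and lines their means. FBP2 is highest in flower at 148 TPM, the other 3 are highest in fruit, and AG1 is at 0 in both flower libraries and above 4 TPM in both leaf libraries.

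Flower against fruit asked how these regulators differ between the flower samples, whose floral parts are not stated, and the young fruit. Both genes with carpel-type names, AGL1 and AG1, were higher in fruit, and neither gene with a SEPALLATA-type name passed. To pass, a gene needed a log2 fold change of at least 1 in either direction and an adjusted p below 0.05 in edgeR's quasi-likelihood test, with the Benjamini-Hochberg adjustment made over the 27939 genes tested. Of the 4 genes, 2 passed as higher in fruit and 0 as higher in flower, beside 6.65% and 8.06% of all genes tested and 14.7% in either direction. FBP2 had an unadjusted p of 0.0325 in that fit, and DESeq2 passed 1 of the 4 as higher in flower.

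The marker levels moved with this comparison. The 4 petal and stamen identity genes fell from 1307 and 1353 TPM in flower to 7.98 and 10 in fruit, and their part in the results was not tested. The oleosin genes stood at 8.74 and 6096 TPM in the fruit libraries, while AGL1 was at 32.4 and 32.9 TPM and AG1 at 27.4 and 23.3 in the same libraries.

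AGL1 was at 32.6 ± 0.332 TPM in fruit and 0.31 ± 0.0424 in flower (mean ± SD, n = 2 libraries). Its log2 fold change, flower over fruit, was -6.04 ± 0.57 (SE), a 65.8-fold higher level in fruit (edgeR adjusted p = 0.00631). The ratio of the mean TPM was 105-fold and that with plain library totals 112-fold. All fruit libraries exceeded all flower libraries, and AGL1 passed under every one of 17 other ways of processing the data, with log2 fold changes from -6.81 to -4.68.

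AG1 was at 25.3 ± 2.92 TPM in fruit and at 0 in flower. Set against a floor of 3 counts over both flower libraries, its level in fruit was at least 544-fold higher (edgeR adjusted p = 0.00459). It passed under all 17 alternatives as well, with adjusted p between 1.32e-13 and 0.0319. The smallest value came from DESeq2 and the largest from leaving out flower replicate 1.

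FBP2 was at 148 ± 0.283 TPM in flower and 43.1 ± 11.2 in fruit, and did not pass. The log2 fold change was 2.48 ± 0.93, or 5.57-fold (edgeR adjusted p = 0.118), while the ratio of the mean TPM was 3.43-fold and that with plain library totals 3.12-fold. The flower and fruit libraries did not overlap on either scale. DESeq2 (adjusted p = 0.0185), limma on log2(TPM + 1) (adjusted p = 0.0279) and a fit of the flower and fruit libraries alone (adjusted p = 0.0166) put FBP2 past the threshold as higher in flower.

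SEP1 (comp21161_c0) was at 16.3 ± 6.89 TPM in fruit and 5.78 ± 4.18 in flower, with a log2 fold change of -0.70 ± 0.99 (edgeR adjusted p = 0.665). The difference was smaller than its error. The value depended on which flower library was kept. It was -0.06 without flower replicate 2, the library with the largest share of TAR1-A reads. Without flower replicate 1 it was -1.95, and it did not pass in either case. With the TAR1-A IDs removed and all libraries kept, the SEP1 value was -0.78 (edgeR adjusted p = 0.63).

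Scaling moved the common level of this comparison. The median log2 fold change of all genes was -0.16 with TMM, -1.004 with library totals and -0.63 on log2(TPM + 1), and 54.8%, 23.7% and 33.1% of the genes that passed were higher in flower. The fold changes themselves kept their sign, at 2.48, 1.64 and 1.78 for FBP2 and -0.70, -1.47 and -1.45 for SEP1. Relative to that median, FBP2 lay at 2.63, 2.65 and 2.41 and SEP1 at -0.55, -0.47 and -0.82. Scaling moves a gene and the median nearly together, so values this close are built in. Without flower replicate 2, SEP1 relative to the median turned to 0.22.

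**Figure D2:**
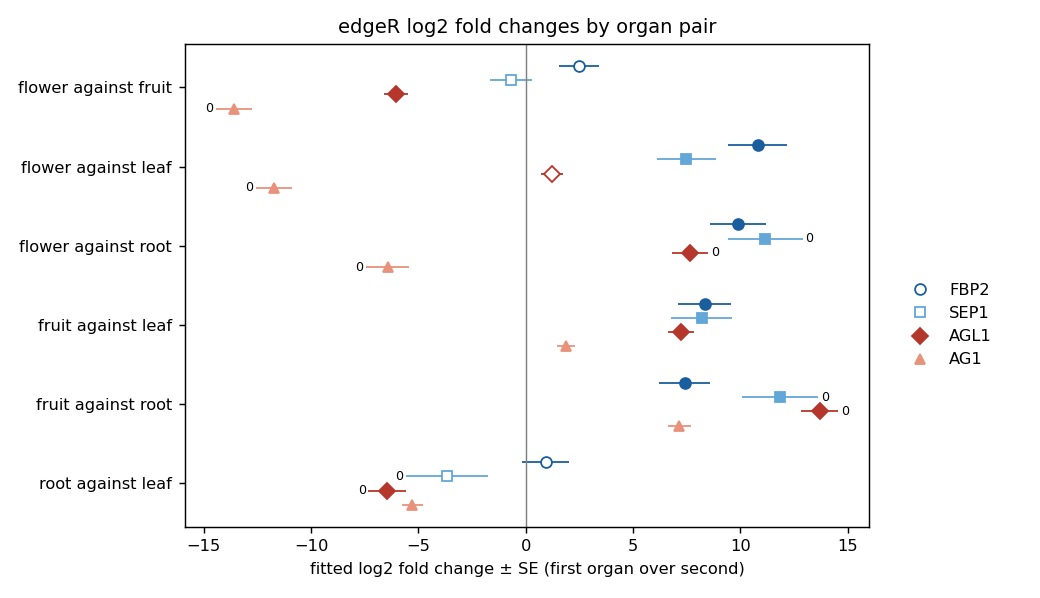
Fitted log2 fold change ± SE of each gene in the 6 organ pairs (first organ over second, n = 2 libraries each); filled symbols passed, open symbols did not, and a 0 beside a bar marks a pair in which the lower organ had no counts, where the fitted value is no bound. AGL1 and AG1 lie left of 0 in flower against fruit, FBP2 lies right of it and SEP1 near it.

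Set against root and leaf, the reproductive organs showed in which organs each gene was detected. In the other 5 organ pairs, which share libraries with each other and with flower against fruit, 17 of 20 values passed. Flower against root called all 4 genes, 3 higher in flower and AG1 higher in root, where 20.6% of all genes passed, 11.2% as higher in flower and 9.39% as higher in root. FBP2 was higher in flower by 9.88 ± 1.30 on the log2 scale (edgeR adjusted p = 0.0064). SEP1 was at least 265-fold and AGL1 at least 21.0-fold higher in flower (edgeR adjusted p = 0.0126 and 0.00618), since root had no counts. AG1, without counts in flower, was at least 3.86-fold higher in root (edgeR adjusted p = 0.0129), at a level of 0.205 ± 0.0354 TPM. On log2(TPM + 1) neither AGL1 nor AG1 passed there (limma adjusted p = 0.44 and 0.631). In a fit of flower and root alone they did not pass either (edgeR adjusted p = 0.0592 and 0.0966). Without flower replicate 1, AG1 and SEP1 did not pass (edgeR adjusted p = 0.0694 and 0.0513). The fitted SEP1 value of 11.16 was 9.98 without flower replicate 1 and 11.93 without flower replicate 2.

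Flower against leaf called 3 genes beside 19.3% of all genes tested, of which FBP2 and SEP1 were higher in flower, where 9.32% of all genes passed, and AG1 in leaf, where 10.0% did. FBP2 was higher in flower by 10.80 ± 1.37 (log2, edgeR adjusted p = 0.0049). All 12 of its leaf counts lay in leaf replicate 2, and the value was 9.82 without leaf replicate 1 and a fitted 16.30, which is no bound, without leaf replicate 2. SEP1 was higher by 224-fold, with a 95% counting interval of 76.1 to 1093 because leaf had only 3 counts in all (edgeR adjusted p = 0.018). AG1 went the other way, being at least 153-fold higher in leaf (edgeR adjusted p = 0.00278), and that call was present under all 17 alternatives. AGL1 did not pass, at 0.31 ± 0.0424 TPM in flower and 0.19 ± 0.0566 in leaf (log2 fold change 1.21 ± 0.51, edgeR adjusted p = 0.15). The fitted SEP1 value of 7.49 moved to 6.42 without leaf replicate 2 (adjusted p = 0.0831) and 6.25 without flower replicate 1 (adjusted p = 0.0698), where it did not pass, and to 8.15 without flower replicate 2. Without leaf replicate 1, which held its 3 leaf counts, it was a fitted 11.15.

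Fruit against root called all 4 genes as higher in fruit, beside 2.06% of all genes in either direction with 1.24% higher in fruit and 0.816% higher in root. FBP2 and AG1 exceeded root by 7.40 ± 1.19 and 7.16 ± 0.53 on the log2 scale (edgeR adjusted p = 0.0366 and 0.0135). SEP1 was at least 388-fold and AGL1 at least 1275-fold higher (edgeR adjusted p = 0.0407 and 0.0117), against no counts in root. These calls lay close to the threshold. FBP2 did not pass in 7 and SEP1 in 9 of 17 alternatives, with adjusted p up to 0.159 for FBP2 without root replicate 1 and 0.135 for SEP1 without fruit replicate 1. Leaving out a single library cost FBP2 the call for either replicate of root, flower or fruit, and cost SEP1 the call for each of the 8 libraries. The share of all genes that passed was also well below 2.06% in these fits. Only without root replicate 2 was that share not lower. AG1 did not pass without root replicate 1 (adjusted p = 0.0566) or fruit replicate 2 (adjusted p = 0.051). In a fit of fruit and root alone, all 4 were short of the threshold (adjusted p from 0.0661 to 0.0718), as was every other gene: edgeR passed 0 of 25529 there, with 4410 at an unadjusted p below 0.05, while DESeq2 over all organs passed 3246. Fitted values for FBP2 depended on root replicate 2, which held 22 of its 28 root counts: without it the log2 fold change was 8.48 in fruit against root and 10.86 in flower against root.

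Fruit against leaf also called all 4 genes as higher in fruit, beside 9.64% of all genes in either direction, with 3.59% higher in fruit and 6.05% higher in leaf. FBP2 was higher by 8.33 ± 1.26 and AGL1 by 7.25 ± 0.60 on the log2 scale (edgeR adjusted p = 0.0129 and 0.00786). The FBP2 value was 7.35 without leaf replicate 1 and a fitted 13.93 without leaf replicate 2, where leaf had no counts. SEP1 was higher by 328-fold, with a 95% counting interval of 112 to 1595 (edgeR adjusted p = 0.0237). The AG1 difference was the smallest of the 4, 3.63-fold (log2 1.86 ± 0.41, edgeR adjusted p = 0.0472). It did not pass in 10 of 17 alternatives, the replicate block among them (adjusted p = 0.0637), nor when any 1 of the 8 libraries was left out, with adjusted p up to 0.253 without leaf replicate 2. The photosynthesis genes, at 12103 and 3279 TPM in fruit and at 137516 and 106689 TPM in leaf, also differed between these organs, and their part in the AG1 values was not tested. Without leaf replicate 2 and without fruit replicate 2, FBP2, SEP1 and AGL1 did not pass. With any leaf or fruit library left out, the share of all genes that passed was also well below 9.64%. The fitted SEP1 value of 8.19 was 7.24 without leaf replicate 2, and 11.86 without leaf replicate 1, where leaf had no counts. SEP1 was also lost without leaf replicate 1 (adjusted p = 0.0731) and fruit replicate 1 (adjusted p = 0.0929).

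Root against leaf called AGL1 and AG1 as higher in leaf, beside 12.4% of all genes in either direction, with 7.92% higher in leaf and 4.45% higher in root. AG1 was higher in leaf by 39.3-fold (log2 fold change, root over leaf, -5.30 ± 0.49, edgeR adjusted p = 0.00299) and passed under all 17 alternatives. AGL1 was at least 8.67-fold higher in leaf (edgeR adjusted p = 0.00878), a difference between 22 counts and 0, and did not pass on log2(TPM + 1) (limma adjusted p = 0.704) or log2(TPM + 0.1) (limma adjusted p = 0.0605). FBP2 and SEP1 did not pass (edgeR adjusted p = 0.66 and 0.29), and the FBP2 direction turned without root replicate 2 (-0.16) or leaf replicate 1 (-0.05). For SEP1 no fold is given, since leaf had 3 counts and root none.

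The order of levels therefore differed from gene to gene. FBP2 ran from flower through fruit to root and leaf, and root and leaf overlapped. SEP1 ran from fruit through flower to leaf and root; fruit and flower overlapped on CPM, and so did leaf and root. AGL1 ran from fruit through flower and leaf to root, with flower and leaf apart by less than the test could call. AG1 ran from fruit through leaf and root to flower without overlap between neighbours. The sum of the 4 genes was 157 and 151 TPM in flower and 132 and 103 TPM in fruit. Leaf libraries reached 7.54 and 5.38 TPM, and root libraries 0.3 and 0.72 TPM. On TPM, flower and fruit were thus near each other in the sum and unlike in its make-up. On CPM the sums lay further apart, at 272 and 221 in flower and 118 and 133 in fruit.

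Within a library, shares and ratios of TPM do not depend on scaling between libraries. FBP2 made up 94.2% and 97.95% of the sum of the 4 genes in the flower libraries and 38.7% and 34.3% in fruit. In fruit the rest was spread over AGL1 (24.5% and 32.0%), AG1 (20.7% and 22.6%) and SEP1 (16.1% and 11.1%). In leaf AG1 held 95.9% and 92.6%. The ratio of AGL1 to FBP2 was 0.0023 and 0.00189 in flower and 0.635 and 0.932 in fruit. The ratio of AG1 to AGL1 was 0.845 and 0.707 in fruit and 31.4 and 33.2 in leaf, so that leaf held AG1 with little AGL1. An exact permutation test of 2 against 2 libraries cannot give a two-sided p below 0.333, and these ratios are given without a test.

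The other MADS-box genes place these levels. Over all 25 genes of the list, 7 passed as higher in flower, 5 as higher in fruit and 13 did not pass. Among the latter, MADS27 (comp19764_c0) and MADS57 (comp80604_c0) had no counts in flower or fruit and could not pass. The median log2 fold change of the list, 0, is the value these undetected genes were given. It is therefore not set against the -0.16 over all genes tested. The calls are 48% of the list, beside 14.7% of all genes in either direction, 8.06% higher in flower and 6.65% higher in fruit. Leaving out single libraries gave between 4 and 12 calls, with 4 without flower replicate 1 and 5 without flower replicate 2, fruit replicate 1 or fruit replicate 2. In those 4 fits the share of all genes that passed was also lower, at 2.06%, 2.85%, 3.79% and 3.404% in that order.

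In the AGAMOUS class, all 3 genes found, AGL1, AG1 and AGL11, passed as higher in fruit. AGL11 (comp4517_c0), the Arabidopsis name of the ovule and seed coat gene SEEDSTICK, was at 43.5 and 38.8 TPM in fruit and had no counts in flower or root. It was at least 585-fold higher in fruit than in flower (edgeR adjusted p = 0.0469). Leaf replicate 2 held 43 of its counts and leaf replicate 1 none. The AGL11 call was lost in 6 of 17 alternatives, with either flower or fruit library left out, with the replicate block or with no filter on low counts (adjusted p from 0.0514 to 0.17). The class as a whole summed to 103 and 94.9 TPM in fruit and 7.46 and 6.13 TPM in leaf, with at most 0.34 TPM in flower and root.

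In the SEPALLATA class, comp5568_c0, the other SEP1, was at 14.8 and 21.6 TPM in flower and 6.28 and 4.24 in fruit. It passed as higher in flower (log2 fold change 2.46 ± 0.39, edgeR adjusted p = 0.0167), whereas comp21161_c0 did not pass and had its higher mean in fruit. With library totals the call for comp5568_c0 was lost (adjusted p = 0.0831), as it was without leaf replicate 2 (0.0506), flower replicate 1 (0.069), flower replicate 2 (0.0816), fruit replicate 1 (0.0856) and fruit replicate 2 (0.1). The ratio of comp21161_c0 to comp5568_c0 within a library was 0.59 and 0.131 in flower and 3.38 and 2.70 in fruit. The flower libraries thus held more of comp5568_c0 and the fruit libraries more of comp21161_c0. The class summed to 171 and 173 TPM in flower and 78.5 and 51.0 in fruit.

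All 4 petal and stamen identity genes passed as higher in flower. GLO (comp18082_c0), named for a GLOBOSA-type gene, was at 631 and 575 TPM in flower and had 2 counts in fruit, a ratio of 50229-fold with a 95% counting interval of 13904 to 414767 (edgeR adjusted p = 0.0048). FBP1 (comp12071_c0), of the same type in petunia, was at 289 and 448 TPM in flower, had no counts in any other organ and was at least 6881-fold higher in flower than in fruit (edgeR adjusted p = 0.00566). DEFA (comp24526_c0), a DEFICIENS-type gene, was at 227 and 186 TPM in flower and 0.28 and 2.05 in fruit (log2 7.98 ± 1.24, edgeR adjusted p = 0.012). A second DEFA (comp20901_c0) was at 159 and 144 TPM in flower and kept 7.70 and 7.91 TPM in fruit (log2 4.82 ± 0.91, edgeR adjusted p = 0.0198). AP1 (comp14228_c0), of a class known for sepal identity and floral meristem fate, was at 39.3 and 34.2 TPM in flower and 0.59 and 0.15 in fruit (log2 7.41 ± 1.204, edgeR adjusted p = 0.0175). Without any 1 flower library, AP1 and both DEFA IDs did not pass (adjusted p from 0.0508 to 0.0905), and without any 1 fruit library AP1 and comp20901_c0 did not pass (adjusted p from 0.0772 to 0.107).

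By make-up, petal and stamen genes held 83.6% and 84.1% of the summed TPM of all 25 MADS-box genes in flower and 2.69% and 4.74% in fruit. The AGAMOUS class held 0.0217% and 0.0174% in flower and 34.8% and 44.9% in fruit. The SEPALLATA class held 11.0% and 10.7% in flower and 26.5% and 24.1% in fruit. As an amount the SEPALLATA class was lower in fruit than in flower, and as a share of MADS-box transcripts it was higher, since the summed level of the 25 genes was 1564 and 1609 TPM in flower and 297 and 211 TPM in fruit.

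**Figure D3:**
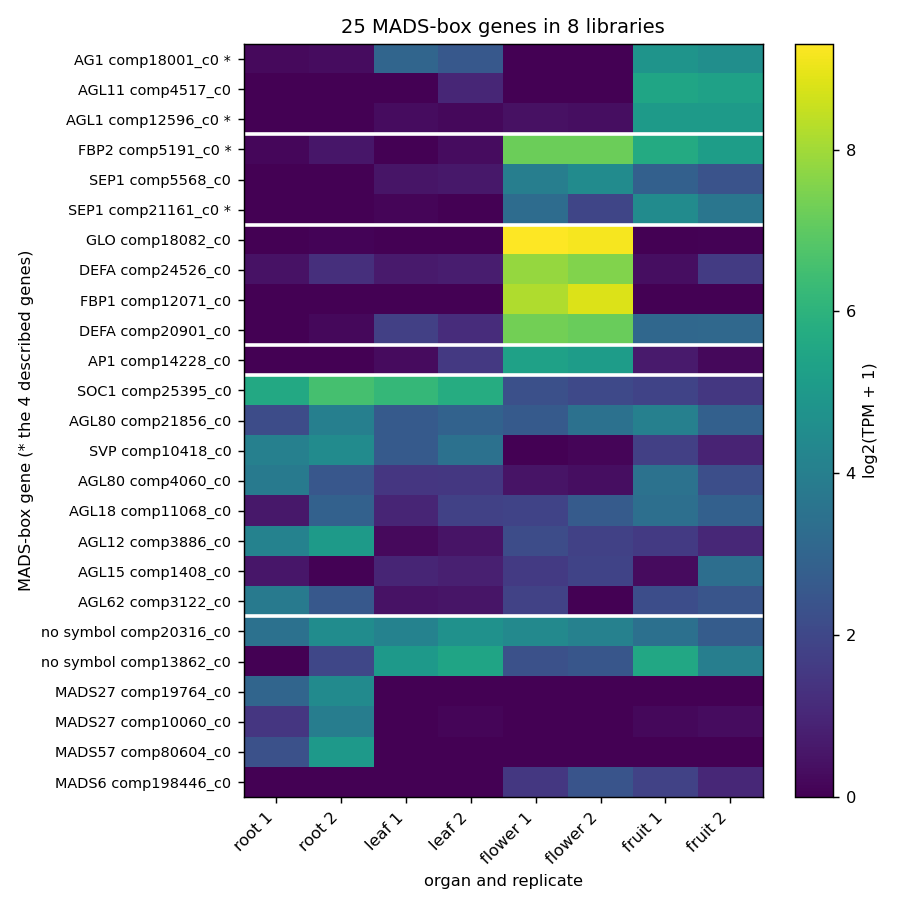
Level of 25 MADS-box genes as log2(TPM + 1) in each of 8 libraries, in rows by class (from the top: AGAMOUS, SEPALLATA, petal and stamen, APETALA1, other symbols, and those without a class), with white lines between classes and stars at the 4 described genes. AGAMOUS-class genes are bright in the fruit libraries, and petal and stamen genes in the flower libraries.

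**Figure D4:**
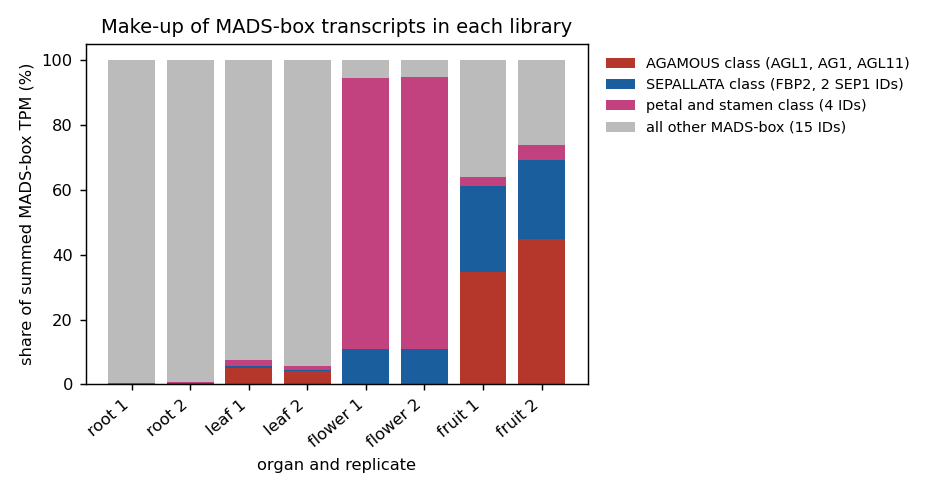
Share of the summed MADS-box TPM (percent) taken by each class in each library. The AGAMOUS class holds 34.8% and 44.9% in fruit and at most 5.15% in the other organs, and the petal and stamen class holds over 80% in flower.

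Regulators and partners of AGAMOUS known from Arabidopsis, among them the corepressors LUG and SEU, the repressor AP2 and Polycomb and homeodomain factors, were followed as a list of 32 IDs. In flower against fruit, 2 of 32 tested were higher in flower, 6 were higher in fruit and 24 did not pass, with a median log2 fold change of -0.23 beside -0.16 over all genes. The 8 calls are 25% of the list, beside 14.7% of all genes in either direction, 8.06% higher in flower and 6.65% higher in fruit. Higher in flower were ULT1 (comp17280_c0), an activator of AGAMOUS in Arabidopsis, at 53.2 and 50.9 TPM in flower and 14.7 and 20.5 in fruit (log2 2.18 ± 0.41, edgeR adjusted p = 0.02), and a LUG ID (comp16143_c0, log2 1.56 ± 0.33, edgeR adjusted p = 0.0271). The latter did not pass in 10 of 17 alternatives, and was at 0.65 with library totals (adjusted p = 0.317). Higher in fruit were BEL1 (comp7855_c1), a homeodomain factor of ovule development, at 0.4 and 0.26 TPM in flower and 8.71 and 7.45 in fruit (log2 -3.90 ± 0.65, edgeR adjusted p = 0.0139), its relative BLH9 (comp19858_c0, log2 -4.80 ± 1.22, edgeR adjusted p = 0.0442) and another LUG ID (comp16805_c0, log2 -1.26 ± 0.32, edgeR adjusted p = 0.0447). Of these, BLH9 did not pass in 9, the LUG ID in 11, ULT1 in 4 and BEL1 in 3 of 17 alternatives. The other 3 genes higher in fruit, named after their values were seen, were the LUG IDs comp14417_c0 (log2 -2.31 ± 0.41) and comp8704_c0 (log2 -1.68 ± 0.37) and the homeodomain gene REV (comp38599_c0, log2 -4.02 ± 0.62). The LUG IDs that passed thus went both ways.

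Carpel, ovule and fruit genes of other families, listed from Arabidopsis, comprised 15 IDs. Of these, 4 were higher in flower, 1 was higher in fruit and 10 did not pass, with a median log2 fold change of 0.76. The 33.3% called stand beside 14.7% of all genes in either direction, 8.06% higher in flower and 6.65% higher in fruit. The genes higher in flower act in the polarity of lateral organs more widely than in the carpel. YAB5 (comp7727_c0) was at 55.9 and 27.4 TPM in flower and 3.13 and 0.96 in fruit (log2 5.17 ± 0.91, edgeR adjusted p = 0.0165). YAB2 (comp7550_c0, log2 2.84 ± 0.41) and AS1 (comp10843_c0, log2 4.67 ± 0.98) were higher as well (edgeR adjusted p = 0.0132 and 0.0262), with YAB1 (comp15203_c0, log2 4.10 ± 0.69), named after its values were seen. The gene higher in fruit was HEC3 (comp12440_c0), annotated with carpel formation and transmitting tissue development and described as aprataxin, at 13.1 and 6.13 TPM in fruit. It had no counts in any other organ and was at least 116-fold higher in fruit than in flower (edgeR adjusted p = 0.0216). HEC3 and YAB5 did not pass in 4, YAB2 in 5 and AS1 in 6 of 17 alternatives.

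Genes with the profile most like each of the 4 were ranked by the root mean square difference of log2 CPM over the 8 libraries, after each gene's own mean was taken off, among 11917 genes with a symbol. A value of 1 is a root mean square distance of 1 log2 unit, in which the largest gaps weigh most. The log2 CPM carried a prior count of 2, and the points share the organs and libraries. FBP2 lay nearest to INVA (comp22856_c0, 1.45), a vacuolar invertase that splits sucrose, DRB5 (comp13937_c0, 1.5002), of double-stranded RNA binding, At4g24660 (comp16517_c0, 1.58) and PYL11 (comp4244_c0, 1.82), an abscisic acid receptor. The median over all candidates was 4.90. INVA was at 268 and 176 TPM in flower and 130 and 64.8 in fruit.

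SEP1 lay nearest to MYB44 (comp6363_c0, 0.829), RHA2B (comp19994_c0, 1.07), OCT2 (comp23324_c0, 1.18) and ERF096 (comp31991_c0, 1.21). MYB44, a regulator of abscisic acid responses, was the only candidate within 1 log2 unit of any of the 4 genes, at 76.7 and 20.7 TPM in flower and 117 and 66.9 in fruit. Its flower replicates differed in the same direction as those of SEP1, a likeness that the ranking favours. Those of the other named genes did not. In flower replicates 1 and 2, RHA2B was at 44.56 and 45.27 TPM, OCT2 at 16.75 and 42.94 and ERF096 at 3.7 and 4.11.

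AGL1 lay nearest to the alpha-amylase AMY1.1 (comp27032_c0, 1.12), PERK9 (comp15149_c0, 1.37), APUM12 (comp71441_c0, 1.38) and WRKY40 (comp8045_c0, 1.39). AMY1.1, which breaks down starch, was at 91.2 and 33.8 TPM in fruit and at most 0.29 elsewhere. AG1 lay nearest to GRXS2 (comp14231_c0, 1.11), PER56 (comp20713_c0, 1.12), CYP716B2 (comp23075_c0, 1.22) and WRKY50 (comp10735_c0, 1.26). These 4 shared with AG1 a level in leaf, from 3.58 TPM in PER56 of leaf replicate 2 upward, and at most 0.36 TPM in flower. The ranking selects genes for such likeness, so it is built in.

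The 4 genes were not each other's nearest neighbours. FBP2 and SEP1 were 2.09 apart, which put SEP1 at rank 8 from FBP2 and FBP2 at rank 51 from SEP1. AGL1 was 2.11 from SEP1, 2.03 from AGL11 and 3.27 from AG1. The widest distance among the 4 was 6.84, between FBP2 and AG1.

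**Figure D5:**
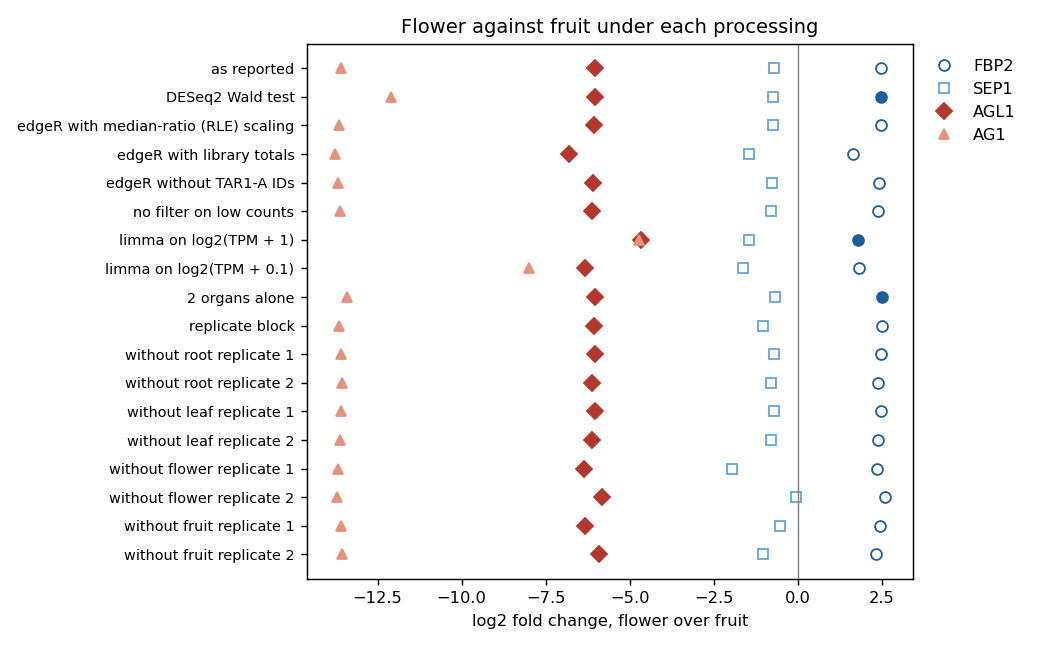
Log2 fold change, flower over fruit, of each gene as reported and under 17 alternatives (filled symbols passed, open symbols did not). AGL1 and AG1 lie left of 0 and are filled throughout, SEP1 lies left of 0 and is open throughout, and FBP2 lies right of 0 and is filled in 3.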

How the data were processed

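A single expression table gives, per the file headers, estimated counts, TPM, RPKM and lengths for each assembled gene in 8 libraries. The deposited estimated counts are not normalised and are nearly whole (in every library at least 97.98% of values lay within 0.005 of a whole number). The deposited TPM were used for levels, and the deposited RPKM were proportional to them within each library and not used further. Per the labels' protocols, libraries were poly(A)-selected and paired-end; for the assembler, aligner, counting tool and strand setting, nothing is stated in the labels used.

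Counts were rounded and tested with edgeR 4.0.16 (limma 3.58.1, R 4.3.3) over all 8 libraries with organ as the only term, TMM scaling and filterByExpr, which left 27939 genes to test and dropped 2238. Residual degrees of freedom were 4. TMM factors were 0.763 and 0.581 in flower and 1.38 and 1.04 in fruit. The edgeR steps were tested on simulated counts with known changes, which were less variable than these data. That run checked the steps and says little about power or false calls here. Each standard error is the log2 fold change divided by the square root of its F statistic. A group at 0 was set to 3 counts over its libraries. Floors allow for counting error in that group alone, since the higher group enters at its own counts. Counting intervals cover counting error only.

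The genes and lists were chosen with earlier results of these data known. Lists match symbols, and MADS-box genes also the description; 10 IDs whose symbol names another protein were removed after the annotation was seen. Named genes were the 4 by ID, MADS genes of 4 classes with a mean of at least 1 CPM, the 3 genes called in each direction with the highest mean in 2 regulator lists, and the 4 nearest profiles among genes of at least 1 CPM in an organ. The 17 alternatives included DESeq2 1.42.0 and limma on log2(TPM + 1) and on log2(TPM + 0.1). With edgeR they were median-ratio scaling, library totals, removal of the TAR1-A IDs and no filter on low counts. Further edgeR fits took the 2 organs alone, added a replicate block or left out each of the 8 libraries in turn. Results that depended on them are given below.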

Additional observations from a re-analysis of the deposited data

How the results depend on the processing

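Across 17 alternatives, AGL1 and AG1 passed as higher in fruit than in flower in all, and SEP1 in none. FBP2 passed under 3: DESeq2 (log2 2.46, adjusted p = 0.0185), limma on log2(TPM + 1) (1.78, 0.0279) and the 2 organs alone (2.48, 0.0166); the cause was not tested. With single libraries left out, FBP2 ran from 2.31 to 2.60 and SEP1 from -1.95 to -0.06. Genes called in flower against fruit numbered 4111, 7269 with DESeq2, and from 612 (without flower replicate 1) to 3655 with a library left out. Calls of the 4 genes in the other 5 pairs numbered 17, 10 with the 2 organs alone, and 10 (without fruit replicate 2) to 14 with a library left out. FBP2 in root against leaf, 0.93 and not called, reversed to -0.16 without root replicate 2 and -0.05 without leaf replicate 1, and was 6.47 without leaf replicate 2. Of 337 values in those pairs, 287 were unchanged in direction and call, 48 lost the call and 2 reversed. Where an organ kept 1 library, that library was assumed to vary like the other organs. With a library left out, the share of all genes that passed also fell in every organ pair. The only exception was fruit against root without root replicate 2. In root against leaf, SEP1 and AGL1 were removed by the filter on low counts with the 2 organs alone, and SEP1 had no counts in either organ without leaf replicate 1. The labels do not say what a replicate number shares, and the libraries were not treated as paired: deviations of same-numbered libraries correlated at 0.384 (flower, root), 0.489 (flower, leaf), 0.436 (root, leaf) and 0.101 (fruit, leaf), but at -0.037 (flower, fruit) and -0.156 (fruit, root). With the replicate block, flower against fruit gave 2.50 for FBP2, -1.04 for SEP1, -6.08 for AGL1 and -13.64 for AG1, with 3840 genes called; of the 4 genes' calls it ended that of AG1 in fruit against leaf (adjusted p = 0.0637) and no other. Low counts limit SEP1, AGL1 and AG1 outside their main organs.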
